A study of Mus musculus with 9 samples.

Results

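Ldb3, Pdlim1, Pdlim2, Pdlim3, Pdlim4, Pdlim5 and Pdlim7 are mouse genes that encode PDZ-LIM proteins, and below these 7 are called the family. NR4A2 chromatin immunoprecipitation sequencing (ChIP-seq) signal at them was compared between mouse hearts with and without induced NR4A2. A region was counted for a gene when it touched the gene's RefSeq span on build GRCm38, extended by 10 kb on each side. This rule found 45 of the 16884 regions in the deposited table, at 6 of the 7 genes. Ldb3 held 23 of them, Pdlim5 held 16, Pdlim3 and Pdlim7 held 2 each, and Pdlim1 and Pdlim2 held 1 each. Pdlim4 had none. A region is in the table only where ChIP signal was called, and the family was chosen with results of these data known, so the presence of regions and the differences below are a description and support no statement about the choice of genes. At the edge of the rule, the region just inside the window lay 9721 bp before Pdlim3 (42.6 ± 9.84 CPM in control and 31.3 ± 9.77 CPM in NR4A2 mice), and the nearest region just outside lay 13931 bp from Pdlim2 (101 ± 5.16 and 68.4 ± 18.4 CPM).

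PDZ-LIM proteins carry a PDZ domain near the N-terminus, which in most members binds alpha-actinin, and LIM zinc fingers towards the C-terminus, which bind kinases and other partners. Alpha-actinin cross-links actin filaments at the Z-disc, the border between neighbouring sarcomeres, so the family places signalling proteins at the point where contractile force passes from sarcomere to sarcomere. In heart muscle Ldb3 (also called Cypher or ZASP) is the best known member, because its loss or mutation causes cardiomyopathy.

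The study measured where NR4A2, a nuclear receptor, occupied chromatin in heart ventricle. The NR4A2 group (Nr4a2-icTg) came from crossing a ROSA26 conditional knock-in of Nr4a2 with mice carrying the Myh6-driven, tamoxifen-dependent Cre recombinase, so that the transgene is switched on in cardiomyocytes. The control group was littermates with that Cre recombinase (αMHC-MerCreMer). Both groups carried the Cre, received 1 intraperitoneal injection of tamoxifen at 40 mg/kg at 8 to 9 weeks of age, and were studied on day 3, with 3 mice in each group. The antibody was 9D12 (5.5 µg for 30 µg of chromatin), and 200 ng of fruit fly chromatin was added as a spike-in. Ventricle is a mixture of cell types, and a change in the share of cardiomyocyte chromatin cannot be told apart from a change of signal per cell.

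Reads in regions numbered 549700 to 1027394 in control and 637635 to 1035856 in NR4A2 libraries, and 1 read was worth 0.955 to 1.81 CPM, the unit of the table, in which every library has about the same total. Pairs of control libraries correlated at 0.877 to 0.913 over the 16884 regions (log2 scale), pairs of NR4A2 libraries at 0.824 to 0.857, and pairs across groups at 0.645 to 0.760. The targeted gene Nr4a2 had a summed signal of 126 ± 22.5 CPM in control and 199 ± 40.5 CPM in NR4A2 mice (log2 fold change 0.65 ± 0.17 SE), and the knock-in locus Gt(ROSA)26Sor had 443 ± 41.1 and 689.6 ± 18.2 CPM (0.64 ± 0.12 SE). These are ChIP reads without an input library, not amounts of transcript. Whether reads from the knock-in copy of Nr4a2 add to them was not tested. Of the 4 Nr4a2 regions, 2 were higher at a limma adjusted p under 0.05, the stronger with 13.1 ± 10.6 CPM in control and 90.3 ± 21.3 CPM in NR4A2 mice. The others did not pass, with 74.9 ± 2.91 and 71.6 ± 17.6 CPM, and with 29.5 ± 11.4 and 12.3 ± 1.19 CPM. The authors labelled the latter as decreased. At Gt(ROSA)26Sor 2 of 3 regions were higher. The strongest did not pass, with 308 ± 23.6 CPM in control and 373 ± 27.7 CPM in NR4A2 mice (limma adjusted p = 0.226). Setd5 and Thumpd3 also lie within 10 kb of the called region there with the lowest adjusted p. Regions lay at 6 of 6 cardiomyocyte markers (summed signal 32664 to 48898 CPM in control and 43555 to 52989 CPM in NR4A2 mice). They lay at 3 of 7 fibroblast markers (99.6 to 163 and 88.3 to 146 CPM), with none at Dcn, Pdgfra, Lum or Postn. They lay at 3 of 4 endothelial markers (494 to 620.0 and 370 to 504 CPM) with none at Tek, at 1 of 4 leukocyte markers (418 to 460.4 and 340.5 to 375 CPM) with none at Ptprc, Adgre1 or Csf1r, and at 1 of 3 smooth muscle markers (5.43 to 16.4 and 5.05 to 14.2 CPM) with none at Myh11 or Tagln. The leukocyte marker with signal was Cd68, and the genes Eif4a1, Mpdu1, Senp3 and Tnfsf13 lie within 10 kb of its strongest region as well, so this signal cannot be assigned to Cd68 alone. The leukocyte sums, which are those of Cd68 alone, were lower in every NR4A2 mouse than in every control mouse, as were 16.9% of all gene sums. The difference did not pass the test (log2 fold change -0.28 ± 0.12 SE, limma adjusted p = 0.143). The sums of the other marker lists overlapped between the groups. The part of these cell types in the values below was not tested.

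The RefSeq sequences of GRCm38.p6 list 8 transcription starts for 6 of the 7 genes, and none for Pdlim2. Of these 8 starts, 5 lay inside a region of the table, against 7620 of all 32851 listed starts (23.2%). The 250 bases before 4 of these starts are printed because they are the start sites at, or next to, the regions with the most signal at Ldb3, Pdlim5 and Pdlim7. All are on the minus strand and are written 5′ to 3′ in the direction of transcription, with the last base next to the start. Capitals mark the CArG box (the site of serum response factor) in Ldb3 and the nuclear receptor half-site AGGTCA, read on the opposite strand as TGACCT, before the second listed start of Pdlim5.
Ldb3, first start, chr14:34588682-34588931: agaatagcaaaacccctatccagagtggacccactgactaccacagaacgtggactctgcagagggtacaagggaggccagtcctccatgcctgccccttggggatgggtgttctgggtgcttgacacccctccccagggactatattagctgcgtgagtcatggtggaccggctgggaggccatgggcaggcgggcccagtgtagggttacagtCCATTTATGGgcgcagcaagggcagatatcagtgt
Pdlim5, first start, chr3:142395697-142395946: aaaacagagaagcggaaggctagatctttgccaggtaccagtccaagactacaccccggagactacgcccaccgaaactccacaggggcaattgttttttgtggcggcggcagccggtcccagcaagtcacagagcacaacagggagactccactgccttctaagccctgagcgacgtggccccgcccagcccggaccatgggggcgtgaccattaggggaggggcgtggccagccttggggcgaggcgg
Pdlim5, second start, chr3:142391851-142392100: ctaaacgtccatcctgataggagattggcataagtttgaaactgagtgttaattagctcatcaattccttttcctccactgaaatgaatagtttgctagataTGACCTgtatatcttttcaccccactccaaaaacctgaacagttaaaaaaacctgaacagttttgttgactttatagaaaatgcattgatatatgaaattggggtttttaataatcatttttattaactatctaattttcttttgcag
Pdlim7, chr13:55513447-55513696: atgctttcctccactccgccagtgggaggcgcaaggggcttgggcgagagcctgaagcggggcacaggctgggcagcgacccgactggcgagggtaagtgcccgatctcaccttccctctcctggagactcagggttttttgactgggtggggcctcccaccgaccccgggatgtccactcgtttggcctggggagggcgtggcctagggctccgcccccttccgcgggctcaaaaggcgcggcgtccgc

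The Ldb3 CArG box lies 35 to 26 bases before its first start. A CArG box was present in 1.47% of the 32851 windows of the same length. That motif was added to the search after the sequences had been read. The half-site before the second Pdlim5 start lies at 148 to 143 bases before it, and AGGTCA was present on either strand in 14.0% of all windows. The NR4A monomer site AAAGGTCA, which contains the half-site, was found in 1.34% of all windows and in none of the 8 windows of the family. The MEF2 core site was found in 3.20% of all windows and once here, as CTATTCTTAG 55 to 46 bases before the second listed start of Ldb3. The GATA site AGATAA was found in 9.99% of all windows and in none of the 8. The E-box CANNTG, in 66.2% of all windows, was found once before the first Pdlim5 start and at 2 places before Pdlim3. A match is a stretch of letters and does not show that a factor was bound.

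The starts differed in base composition, most of all in CpG dinucleotides. The windows of Pdlim4, Pdlim7, Pdlim5 (first start), Pdlim1 and Pdlim3 had 69.2%, 68.4%, 62.8%, 62.4% and 59.2% G and C with 21, 19, 15, 17 and 11 CpG dinucleotides. The median over all listed windows was 52.4% with 6 CpG. The first and second Ldb3 windows, which overlap, had 58.4% and 60.4% G and C with 5 CpG each, and the second Pdlim5 window had 31.6% with 1. That second Pdlim5 window ends in a run rich in t and c followed by cag, the letters that also precede an exon inside a gene, so distances are given from the first Pdlim5 start as well.

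Of the 45 regions, 7 had higher signal in NR4A2 mice and 0 had lower signal at an adjusted p under 0.05 (limma on log2(CPM + 1), Benjamini-Hochberg adjusted over all 16884 regions). The background was 14.7% of all regions called higher and 3.17% called lower, so the 15.6% called higher here was near the background. At an unadjusted p under 0.05, 11 regions were higher and 1 was lower with limma, and edgeR and DESeq2 also called 0 lower after adjustment. The 7 calls belonged to Ldb3 (5), Pdlim5 (1) and Pdlim3 (1). In the authors' deposited table all 7 had an FDR under 0.05, and 5 of them carried the label of increased signal. The fold was positive in 34 of the 45 regions (75.6%), against 45.3% of all regions, and the median log2 fold change was 0.47 against -0.06. This rested largely on Ldb3 and Pdlim5. Without Ldb3 the fold was positive in 13 of 22 regions with a median of 0.26, and 2 were called (9.09%). Of these 13 positive folds, 12 were at Pdlim5 and 1 at Pdlim3, with none at Pdlim1, Pdlim2 or Pdlim7.

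All NR4A2 mice lay above all control mice in 14 of the 45 regions, against 19.9% of all regions, and all lay below in 1, against 11.7%. Ldb3 held 10 of these 14, and without it all NR4A2 mice lay above in 4 of 22 regions, near the share of all regions. The 7 called regions, 5 of them at Ldb3, had a median length of 1385 bp and a median signal of 88.9 CPM, against 391.5 bp and 21.3 CPM in the 38 not called. Over the whole table the order was the other way, with 369 bp and 24.5 CPM in the 2475 regions called higher and 447 bp and 40.6 CPM in those not called. The median standard error of the log2 fold change was 0.22 in the called and 0.44 in the others. Of the 45 regions, 17 had a mean under 20 CPM, and none of these was called. Over all regions, 840 of the 3700 regions under 20 CPM were called higher and 27 lower. At least 1 library had fewer than 10 reads in 25 of the 45, of which 1 was called. Over the whole table, 5855 regions were as thinly covered, and 1958 of these were called higher.

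**Figure D1:**
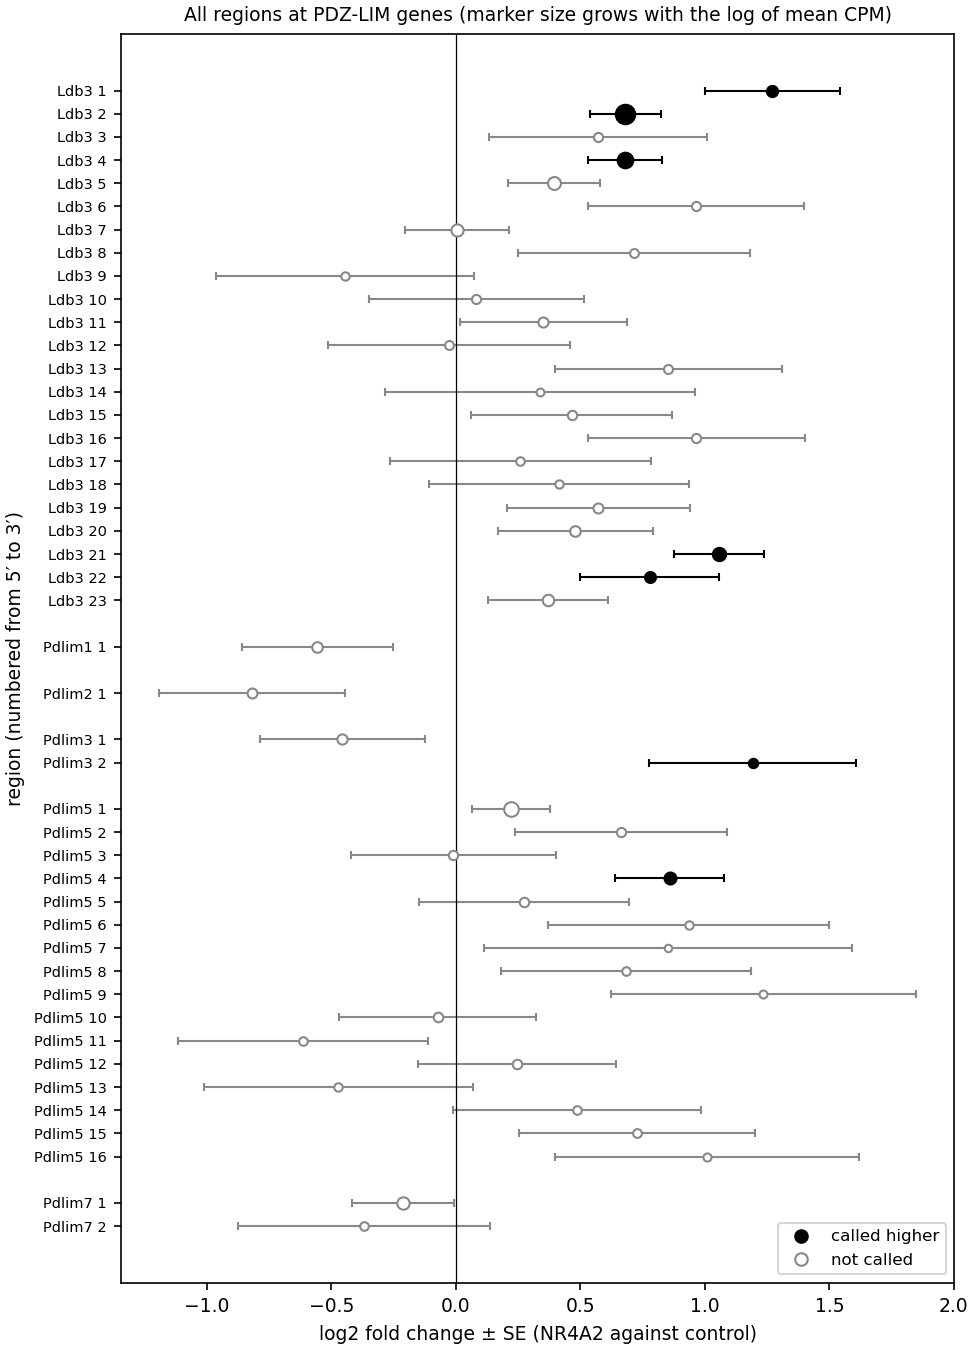
Log2 fold change (NR4A2 against control, on the log2(CPM + 1) scale) with its SE for each of the 45 regions, grouped by gene and ordered 5′ to 3′. The 7 called regions are filled in black and the others open in grey, and 21 of the 23 Ldb3 regions lie to the right of 0.

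Ldb3, which encodes the Z-disc protein that tethers alpha-actinin and protein kinase C, carried by far the most signal of the family. Its 23 regions summed to 4812, 3967 and 3441 CPM in control mice 1, 2 and 3 and 5918, 7030.1 and 6284 CPM in NR4A2 mice 1, 2 and 3. Every NR4A2 mouse lay above every control mouse. The summed means were 4073 ± 692 against 6411 ± 567 CPM (SD, n = 3 per group), a 1.58-fold difference (log2 fold change 0.66 ± 0.15 SE, 95% interval 0.36 to 0.97, limma adjusted p = 0.00209 over 11155 genes with a region). The exact permutation test over mice, two-sided, gave p = 0.1, the smallest that 3 against 3 allows. Among all gene sums, 6.95% were called higher and 3.15% lower, and 11.0% had all NR4A2 mice above all controls while 16.9% had them all below.

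The Ldb3 signal was also wide. The gene spans 34526699 to 34590314 on chromosome 14 (63.6 kb, minus strand), and its regions covered 51.2 kb, including 75.1% of the span. It ranked 10 of 11155 genes by summed signal, 10 by number of regions and 6 by covered length. Neighbouring genes that share regions count separately in these ranks, as Myh6 and Myh7 did, with equal sums above that of Ldb3. Per length, its signal was 79.6 CPM per kb in control and 125 CPM per kb in NR4A2 mice. The first 5 of its regions inside the gene lay so close together (gaps of 148 to 450 bp) that they formed a block of 39.1 kb, at 34551363 to 34590457, of which 97.6% was covered.

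Most of the Ldb3 reads lay in region 2 (regions are numbered 5′ to 3′ along the gene), which runs over 28336 bp (chr14:34562122-34590457) and holds both listed starts. It had 3601, 2752 and 2386 CPM in the control mice and 4180.2, 5184 and 4492 CPM in the NR4A2 mice. The groups did not overlap. The means were 2913 ± 624 against 4619 ± 514 CPM (SD, n = 3 per group), and the log2 fold change was 0.68 ± 0.14 (SE), adjusted p = 0.000163 (limma). The region ranked 3 of 16884 both in signal and in length, and 2259 in signal per length (103 CPM per kb in control and 163 in NR4A2 mice). It was the longest of the 2475 regions called higher. In the authors' deposited table it had a log2 fold change of 0.66 with an FDR of 0.00145 and was labelled unchanged. By the 10 kb rule this region also counts for the neighbouring gene Opn4, although it does not touch the Opn4 span.

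Long regions were called in both directions. Of the 16 regions of at least 10 kb, 2 were called higher (12.5%) and 4 lower, against 14.7% and 3.17% of all regions. The log2 fold changes of these 16 had a median of 0.00 and ranged from -1.09 to 1.27. The longest Ldb3 region was second among these in fold. Among the 6 regions of at least 20 kb it had the highest fold, and 1 of them was called higher and 1 lower.

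**Figure D2:**
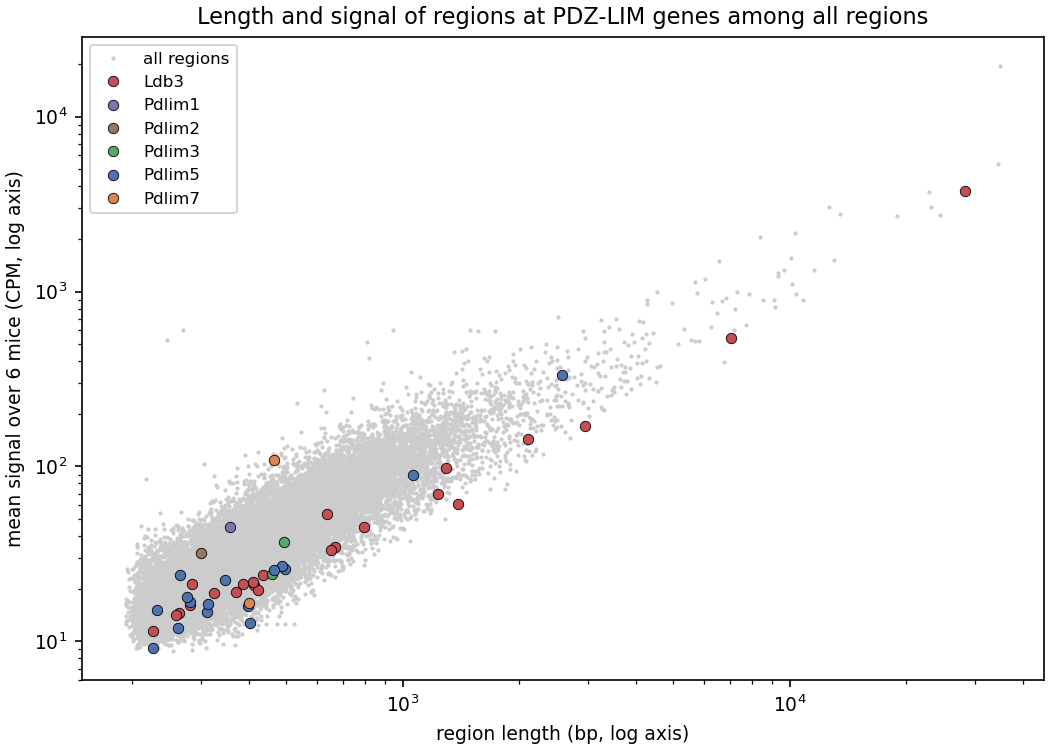
Length (bp, log axis) and mean signal over the 6 mice (CPM, log axis) of the regions at PDZ-LIM genes among all 16884 regions. The longest Ldb3 region, 28336 bp, lies at the upper right edge of the cloud, while most of the other members lie near the median length of 438 bp.

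The longest region held 71.2 ± 3.16% of the Ldb3 reads in control and 71.95 ± 1.61% in NR4A2 mice (exact permutation test, two-sided, p = 0.6), and the 95% Wilson intervals of single libraries were at most 4.14 points wide, for counting error only. The signal outside it was 1160.3 ± 91.0 CPM in control and 1792 ± 54.0 CPM in NR4A2 mice, again without overlap (exact permutation p = 0.1). No difference in this share was detected between the groups.

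Region 4, the 7040 bp further into Ldb3 (chr14:34554466-34561505), had 420.1, 468 and 367 CPM in the control mice and 638, 728 and 641 CPM in the NR4A2 mice. All NR4A2 mice were above all controls. The means were 419 ± 50.4 against 669 ± 51.4 CPM (SD, n = 3 per group), and the log2 fold change was 0.68 ± 0.15 (SE), adjusted p = 0.00028 (limma), nearly that of the longest region. Between and beyond them, regions 3, 5 and 6 had log2 fold changes of 0.57, 0.39 and 0.96 and did not pass the test. All 3 had every NR4A2 mouse above every control, which held for 19.9% of all regions. In region 3 the gap was narrow, with 16.5 CPM in the highest control and 17.7 CPM in the lowest NR4A2 mouse.

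The lowest adjusted p of the family was at the 3′ end of Ldb3. Region 21 (chr14:34526689-34529647, 2959 bp), which reaches over the end of the gene, had 117, 99.3 and 114 CPM in the control mice and 190.0, 262 and 243 CPM in the NR4A2 mice. The lowest NR4A2 mouse was well above the highest control. The means were 110.0 ± 9.42 against 232 ± 37.2 CPM (SD, n = 3 per group), and the log2 fold change was 1.06 ± 0.18 (SE), adjusted p = 4.09e-06 (limma). This region also lies within 10 kb of 9230112D13Rik.

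Region 22, just past the 3′ end (chr14:34525839-34526476, 638 bp), was the fifth call at Ldb3 and was named after its values were seen. It had 30.7, 42.8 and 43.4 CPM in the control mice and 54.4, 86.7 and 63.1 CPM in the NR4A2 mice. The groups did not overlap, but the highest control and the lowest NR4A2 mouse were close. The log2 fold change was 0.78 ± 0.28 (SE), adjusted p = 0.0388 (limma). The call was lost with DESeq2 (adjusted p = 0.0943), with only regions of at least median signal (adjusted p = 0.0752, limma) and without control mouse 1, NR4A2 mouse 2 or NR4A2 mouse 3 (adjusted p = 0.168, 0.240 and 0.0930, limma).

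On the other side of the gene, region 1 (chr14:34591238-34592622, 1385 bp) lies 2557 bp before the first Ldb3 start and 924 bp beyond the span, over the span of the neighbouring gene Opn4, which encodes the photopigment melanopsin. It had 38.9, 29.2 and 36.2 CPM in the control mice and 100.3, 61.5 and 98.4 CPM in the NR4A2 mice. Its groups were far apart. The means were 34.8 ± 5.02 against 86.7 ± 21.9 CPM (SD, n = 3 per group), and the log2 fold change of 1.27 ± 0.27 (SE), adjusted p = 0.000219 (limma), was the highest of the 23 Ldb3 regions. Which of the neighbouring genes this region acts on was not tested.

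The other 18 Ldb3 regions were not called, and 16 of them had a positive fold, with log2 fold changes from -0.44 to 0.97. Region 7, 1292 bp long and well inside the gene, is an example at nearly equal signal, with 105, 90.5 and 95.9 CPM in the control mice and 126, 83.5 and 87.0 CPM in the NR4A2 mice. The groups overlapped there, with means of 97.0 and 98.9 CPM (log2 fold change 0.00 ± 0.21 SE, 95% interval -0.41 to 0.42). Whether its fold differs from those of the called regions was not tested. The identifiers of the table skip 1 number within Ldb3 and 2 within Pdlim5, and those regions were not analysed here.

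**Figure D3:**
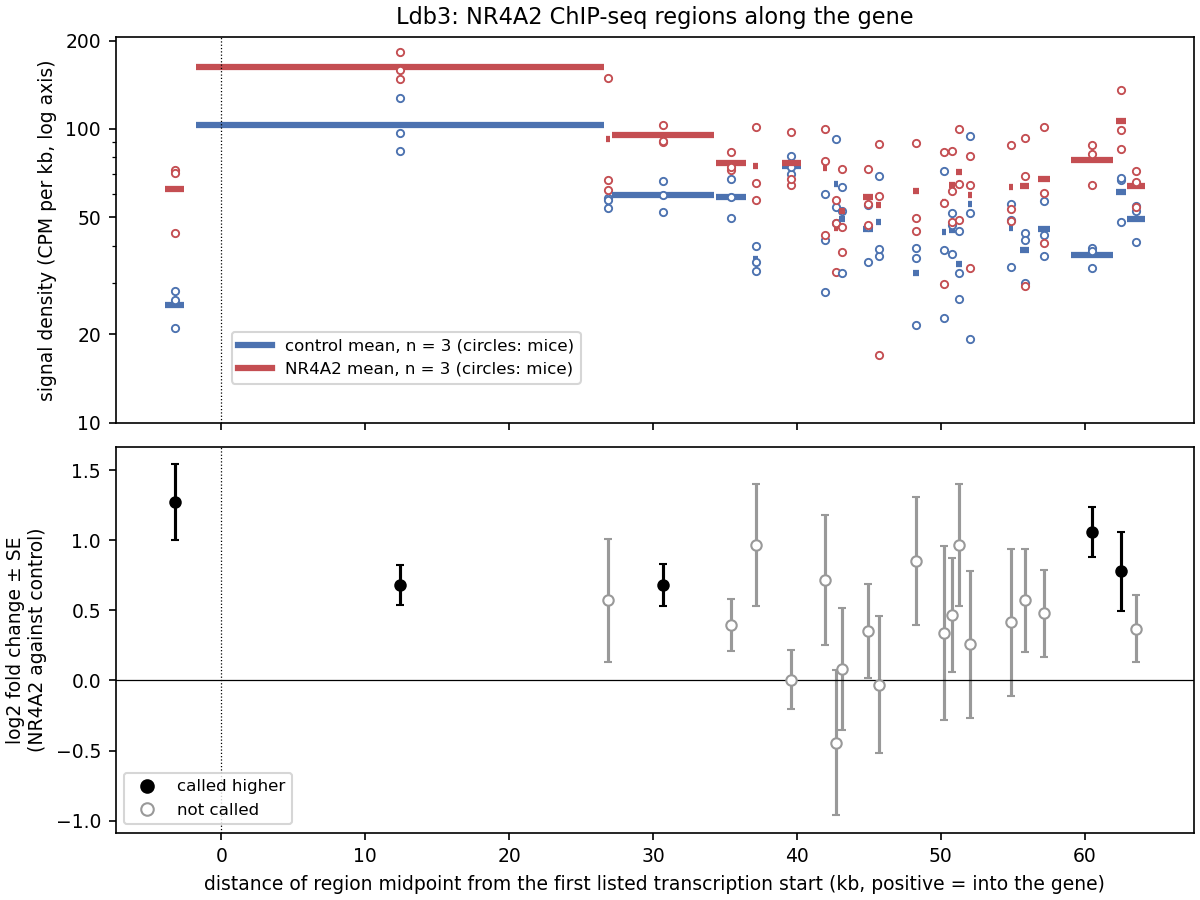
Regions along Ldb3 by distance from the first listed transcription start (kb, positive into the gene): signal per length in each group (CPM per kb, log axis, upper panel) and log2 fold change with its SE (lower panel). Higher signal in NR4A2 mice appears at both ends and over the wide block at the start.

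Pdlim5 encodes ENH, a PDZ-LIM protein that binds protein kinase C and, in heart, alpha-actinin. Its 16 regions were scattered over 156.1 kb (chr3:142239585-142395719, minus strand) and covered 4.95% of the span. They summed to 565, 709.5 and 507 CPM in the control mice and 799, 729.8 and 748 CPM in the NR4A2 mice. All NR4A2 mice were above all controls, by a narrow margin between NR4A2 mouse 2 and control mouse 2. The summed means were 594 ± 104 against 759 ± 36.0 CPM (SD, n = 3 per group), with a log2 fold change of 0.37 ± 0.13 (SE, 95% interval 0.11 to 0.62) that did not pass the test (limma adjusted p = 0.0590, exact permutation p = 0.1). It passed with edgeR (0.47, adjusted p = 0.0213), with DESeq2 (0.45, adjusted p = 0.0239) and, with limma, without control mouse 2 (0.50, adjusted p = 0.0181). When any other mouse was left out, it did not pass (limma adjusted p from 0.0811 to 0.220). Nor did it pass with a window of 0 kb (0.106), only sums of at least median signal (0.0752) or no scaling for depth (0.999, all limma adjusted p). Per length the signal was 70.7 CPM per kb in control and 90.4 CPM per kb in NR4A2 mice, below that at Ldb3.

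The strongest Pdlim5 region, region 1 (chr3:142393410-142395979, 2570 bp), holds the first start and the whole of its printed window. It had 288, 369 and 264 CPM in the control mice and 400.1, 318 and 349 CPM in the NR4A2 mice. The groups overlapped. The means were 307 ± 54.9 against 356 ± 41.2 CPM (SD, n = 3 per group), and the log2 fold change was 0.22 ± 0.16 (SE), adjusted p = 0.376 (limma). The region ranked 147 of 16884 in signal.

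The call at Pdlim5 was in region 4 (chr3:142389794-142390857, 1064 bp), inside the gene 4839 bp past the first listed start and 993 bp past the second. It had 65.6, 74.0 and 50.7 CPM in the control mice and 116, 112 and 115 CPM in the NR4A2 mice. The NR4A2 mice were close to each other and all above the controls. The means were 63.4 ± 11.8 against 114 ± 2.31 CPM (SD, n = 3 per group), and the log2 fold change was 0.86 ± 0.22 (SE), adjusted p = 0.00226 (limma). Between it and the start region, region 2, which reaches into the printed second window by 3 bp, had 17.4, 17.5 and 14.5 CPM in the control mice and 24.8, 42.6 and 17.7 CPM in the NR4A2 mice (log2 fold change 0.66 ± 0.43 (SE), adjusted p = 0.314, limma), so that the groups just failed to overlap. The 15 regions of Pdlim5 that were not called ranged from -0.61 to 1.24 in log2 fold change, 11 of them positive, and 12 of them had fewer than 10 reads in at least 1 library.

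**Figure D4:**
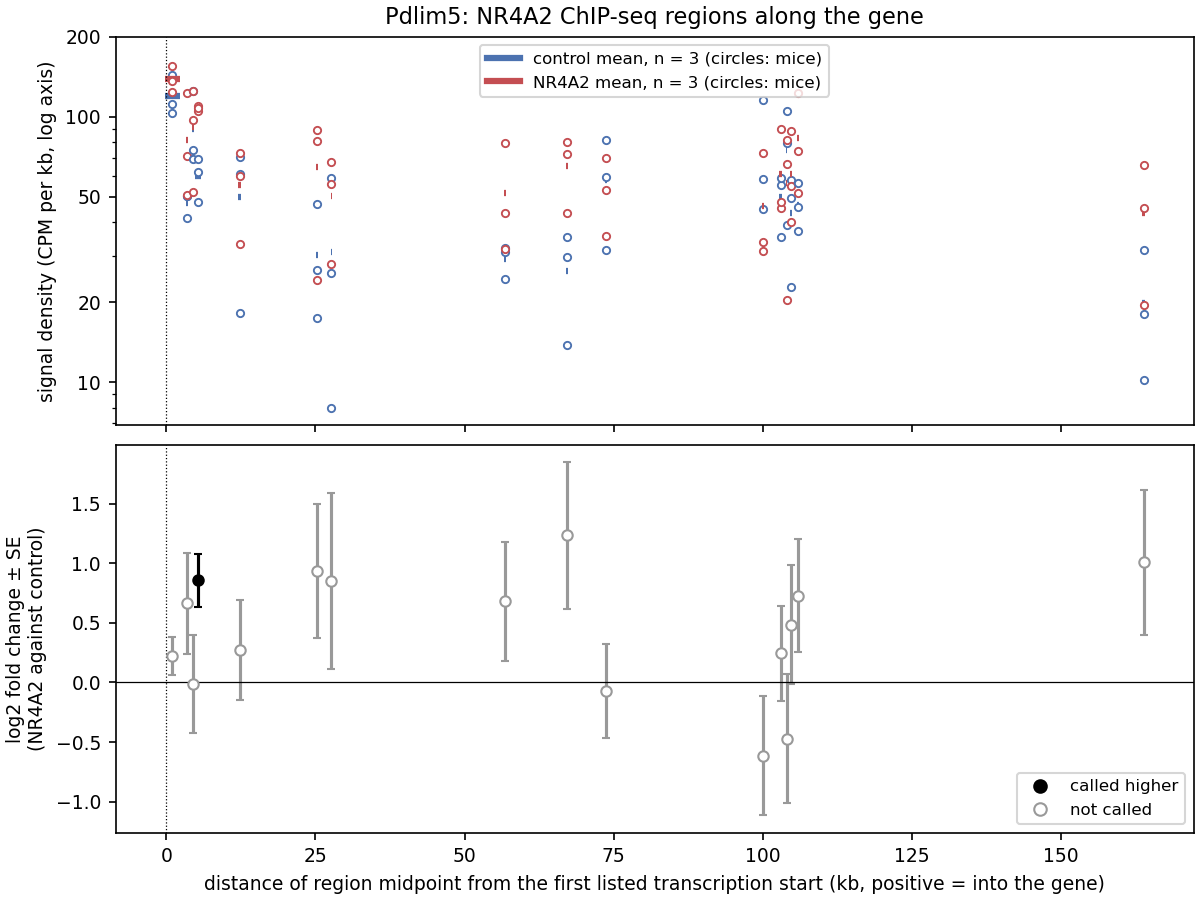
Regions along Pdlim5 by distance from the first listed transcription start (kb, positive into the gene): signal per length in each group (CPM per kb, log axis, upper panel) and log2 fold change with its SE (lower panel). The called region, at 59.6 CPM per kb in control and 108 CPM per kb in NR4A2 mice, lies a few kb into the gene. The regions deeper in the gene are short with wide errors.

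Pdlim3 encodes ALP, an alpha-actinin-associated LIM protein of skeletal and cardiac muscle. Its gene (chr8:45885487-45919635) had no region at its listed start. Region 2 (chr8:45903863-45904320, 458 bp) lies 18376 bp into the gene and had 13.3, 19.5 and 10.9 CPM in the control mice and 29.6, 36.3 and 35.3 CPM in the NR4A2 mice. All NR4A2 mice were above all controls. The means were 14.5 ± 4.43 against 33.7 ± 3.60 CPM (SD, n = 3 per group), and the log2 fold change was 1.19 ± 0.41 (SE), adjusted p = 0.0320 (limma). This call was lost with DESeq2 (adjusted p = 0.0737) and when any mouse but control mouse 2 was left out (limma adjusted p = 0.0730 without control mouse 1, 0.0926 without control mouse 3, and 0.0591, 0.106 and 0.101 without NR4A2 mice 1, 2 and 3).

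Region 1 of Pdlim3, 9721 bp before the gene, had 40.0, 53.5 and 34.4 CPM in the control mice and 31.5, 41.0 and 21.4 CPM in the NR4A2 mice. The groups overlapped and the fold was in the other direction (-0.46 ± 0.33 (SE), adjusted p = 0.387, limma). The sum of both regions was 57.2 ± 14.3 against 65.0 ± 10.8 CPM (SD, n = 3 per group), with overlapping groups and a log2 fold change of 0.20 ± 0.25 (SE, limma adjusted p = 0.667, exact permutation p = 0.5).

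Pdlim7 encodes Enigma, which binds tropomyosin and kinases through its domains. Its main region lies at the start (chr13:55513151-55513614, 464 bp, also within 10 kb of Dok3) and overlaps the printed window. It had 90.2, 138 and 123 CPM in the control mice and 119, 96.2 and 85.8 CPM in the NR4A2 mice. The groups overlapped. The means were 117 ± 24.6 against 100.4 ± 17.2 CPM (SD, n = 3 per group), and the log2 fold change was -0.21 ± 0.20 (SE), adjusted p = 0.542 (limma). Per length it was the densest region of the family, rank 86 of 16884, at 252 CPM per kb in control and 216 CPM per kb in NR4A2 mice. The second region, 1792 bp into the gene, had 23.6, 29.2 and 7.24 CPM in the control mice and 11.5, 15.8 and 12.6 CPM in the NR4A2 mice, with overlapping groups (log2 fold change -0.37 ± 0.51 SE). The Pdlim7 sum gave -0.26 ± 0.18 (SE, 95% interval -0.63 to 0.11, limma adjusted p = 0.396).

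Pdlim1 encodes CLP36, which links alpha-actinin to kinases on actin filaments in many cell types. Its only region lies at the start (chr19:40271326-40271682, 357 bp) and had 49.2, 51.6 and 57.9 CPM in the control mice and 43.0, 23.6 and 44.1 CPM in the NR4A2 mice. All NR4A2 mice were below all controls, the lowest being NR4A2 mouse 2. The means were 52.9 ± 4.52 against 36.9 ± 11.5 CPM (SD, n = 3 per group), and the log2 fold change was -0.56 ± 0.30 (SE), adjusted p = 0.215 (limma, exact permutation p = 0.1).

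Pdlim2 encodes a protein known as a nuclear ubiquitin ligase for the NF-kB subunit p65. Its only region (chr14:70153550-70153849, 300 bp) lies 8772 bp outside the span and overlaps the gene Ccar2. It had 48.2, 23.4 and 52.5 CPM in the control mice and 13.4, 31.5 and 24.0 CPM in the NR4A2 mice. The groups overlapped, with control mouse 2 among the NR4A2 mice. The means were 41.3 ± 15.7 against 23.0 ± 9.12 CPM (SD, n = 3 per group), and the log2 fold change was -0.82 ± 0.37 (SE), adjusted p = 0.125 (limma). Without control mouse 2 it was -1.18 (adjusted p = 0.0345, limma).

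Pdlim4 encodes RIL, an actin and alpha-actinin binding protein of stress fibres. No region of the table lay within 10 kb of its span (chr11:54054928-54069032). The nearest was 26586 bp away, with 26.6 ± 11.5 CPM in control and 35.8 ± 15.4 CPM in NR4A2 mice.

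**Figure D5:**
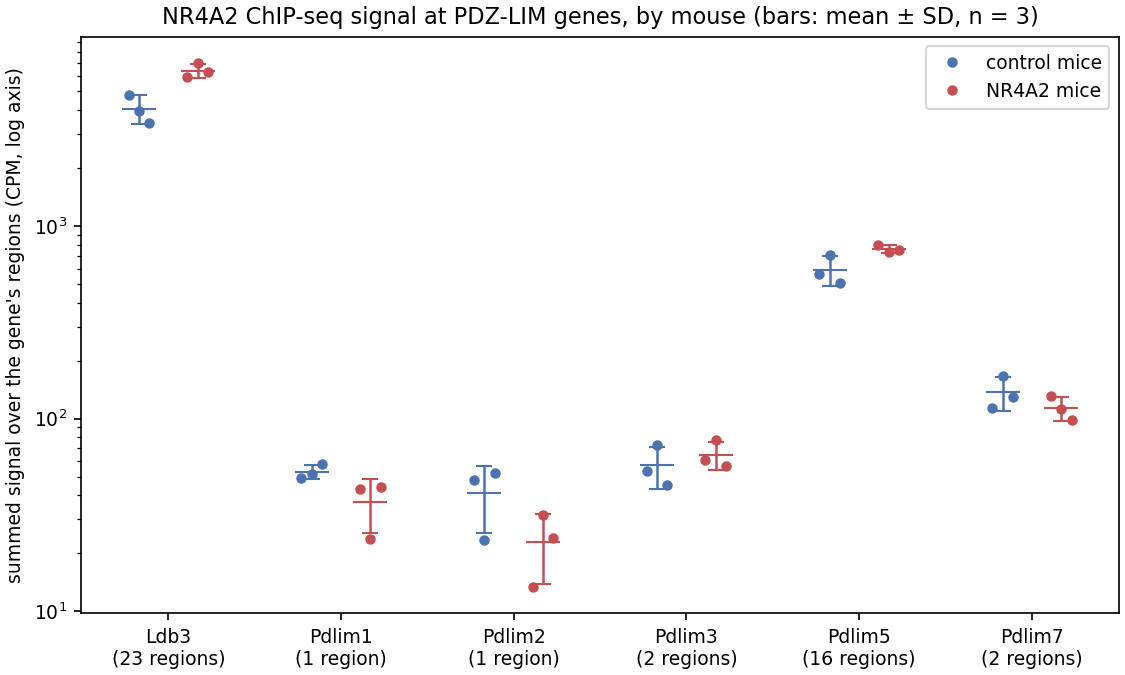
Summed signal (CPM, log axis) over the regions of each gene in each mouse, for the 6 genes with a region. The NR4A2 mice lie above the controls at Ldb3 and Pdlim5, below them at Pdlim1, and among them at Pdlim2, Pdlim3 and Pdlim7.

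By signal per length in control mice, the order of the genes was Pdlim7 (159 CPM per kb), Pdlim1 (148), Pdlim2 (138), Ldb3 (79.6), Pdlim5 (70.7) and Pdlim3 (60.2). In NR4A2 mice it was Pdlim7 (131), Ldb3 (125), Pdlim1 (103), Pdlim5 (90.4), Pdlim2 (76.5) and Pdlim3 (68.5). Pdlim7, Pdlim1 and Pdlim2, each with 1 or 2 short regions, were thus denser than Ldb3 in the controls, while Ldb3 had the highest sum and the widest cover. These values are over regions of the table only, and neighbours in this order were not tested against each other.

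The partners of the family were taken from a list of 37 Z-disc and actin-linked genes, of which 35 had a region (none at Myot and Ankrd2). Of these 35, 15 had at least 1 region called higher and 5 at least 1 called lower, 2 of them having both, against 14.2% and 6.25% of all genes with a region. The chance of a call grows with the number of regions at a gene. Counted by region, 30 of the 188 at these genes were higher and 4 lower, near the 14.7% and 3.17% of all regions. By summed signal 8 of the 35 genes were higher and 3 lower, against 6.95% and 3.15% of all genes with a region. The median log2 fold change of the sums was -0.07 against -0.13 over all genes. The higher sums included Csrp3, the muscle LIM protein (0.96 ± 0.14 SE), Nebl, a nebulin relative at the Z-disc (1.34 ± 0.28 SE), and Actn2, the alpha-actinin to which these PDZ domains bind (0.51 ± 0.13 SE). The lower sums, named after their values were seen, were Nexn, an actin-binding protein (-0.44 ± 0.13 SE), Capza2, which caps actin filaments (-0.82 ± 0.23 SE), and Trim63, the ubiquitin ligase MuRF (-0.49 ± 0.12 SE).

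In single regions the lowest adjusted p among the partners was at Csrp3, where 592 ± 139 CPM in control stood against 1187 ± 121 CPM in NR4A2 mice (log2 fold change 1.02 ± 0.15 SE, limma adjusted p = 9.40e-08). The calsarcin genes Myoz3 (1.29 ± 0.23 SE) and Myoz2 (1.82 ± 0.38 SE), whose products bind alpha-actinin, each had a higher region. The Myoz3 region also lies near Synpo, and the Myoz2 sum did not pass the test (0.37 ± 0.14 SE, limma adjusted p = 0.0820). The other calsarcin gene, Myoz1, had 0 of 3 regions higher and 1 lower (-0.67 ± 0.21 SE, limma adjusted p = 0.0198), near Synpo2l, and its sum did not pass (-0.40 ± 0.14 SE). Higher regions were also called at Palld (1.84 ± 0.43 SE), Des, the desmin gene, near Speg (1.65 ± 0.39 SE), Nebl (1.36 ± 0.33 SE), Fhl1 (1.91 ± 0.48 SE), Actn2 (1.04 ± 0.28 SE) and Lmo7 (1.05 ± 0.28 SE). Their limma adjusted p-values ran from 8.15e-06 at Myoz3 to 0.00403 at Lmo7. The Des sum did not pass the test (0.18 ± 0.13 SE, limma adjusted p = 0.378). In control mice the regions were weak at Fhl1 (8.54 ± 3.59 CPM), Palld (11.5 ± 6.08), Des (13.2 ± 0.488) and Myoz2 (14.6 ± 4.90).

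Of 15 signalling partners, 13 had a region (none at Prkcb and Tbx5), 5 had a region called higher and none a region called lower, and 1 sum, of Prkd1 (0.73 ± 0.22 SE, named after its value was seen), was higher. Over all genes with a region, 14.2% had a higher and 6.25% a lower region, and 6.95% of sums were higher. Counted by region, 7 of the 31 at the 13 partners were higher and 0 lower, against 14.7% and 3.17% of all regions. The protein kinase C genes Prkca and Prkce, whose products bind LIM domains of the family, had higher regions with log2 fold changes of 2.50 ± 0.52 (SE, limma adjusted p = 0.000153) and 2.08 ± 0.48 (SE, adjusted p = 0.000554). The regions were weak in control mice, at 5.70 ± 3.11 CPM for Prkca and 8.83 ± 5.90 CPM for Prkce. The sums did not pass the test at Prkca (0.23 ± 0.24 SE, limma adjusted p = 0.595) or Prkce (0.15 ± 0.13 SE, adjusted p = 0.503). Prkcd (-0.34 ± 0.50 SE) and Prkcz (-0.28 ± 0.21 SE) had 1 region each, neither of them called. The median sum over the 13 genes was -0.19.

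Likeness between a member and the partner genes was measured over the 6 mice as the root mean square difference of log2(summed CPM + 1), each centred on its own mean, among 48 partners with a region. Ldb3 was nearest to Lmo7 (0.134), a LIM-domain protein of the cell border, and to Actn2 (0.142). Pdlim5 was nearest to Actn2 (0.160) and Stat4 (0.171), Pdlim3 to Fhl2 (0.135) and Srf (0.165), and Pdlim7 to Capzb (0.157) and Rela (0.171). Pdlim1 was nearest to Mrtfa (0.212) and Id2 (0.264), and Pdlim2 to Myoz1 (0.446) and Trim63 (0.497), the widest gap of the 6. The measure holds the difference between groups as well as that between mice.

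All calls above are relative to the depth of each library. On the recovered reads without scaling for depth, 0 of the 45 regions were called higher and 0 lower with limma (3 and 0 at an unadjusted p under 0.05), while the log2 fold changes of the 6 named called regions stayed between 0.65 and 1.24. Over all regions that analysis called 1398 higher and 14 lower, against 2475 and 536 with scaling. The Ldb3 sum was 0.64 ± 0.50 (SE, limma adjusted p = 0.999) without scaling. The labels number the mice separately. The limma p-values set a difference against the spread between mice, moderated by a trend over all regions or gene sums. For the longest Ldb3 region the limma adjusted p was 0.000163, and 0.0104 when the moderation was not robust. It was 0.0181 with only regions of at least median signal.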

How the data were processed

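NR4A2 ChIP-seq libraries of 6 hearts, 3 control and 3 NR4A2, were used, out of 9 samples of the series. The remaining 3 (a ChIP and an input from the test of the antibody, and a pooled input) were not analysed here, since no column belongs to them. The submitters' processing notes name BWA and the build GRCm38 (mm10). Not given in the sources used here are how peaks were called and merged and how the fly spike-in was used.

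The values the authors deposited per mouse are CPM over 16884 regions, per the file headers. The CPM columns summed to 989059 to 1009112, and all values (100%) were whole multiples of 1 read within 0.001 reads, so whole reads could be recovered. Had reads been thinned by the spike-in beforehand, the unscaled reads would be the spike-in comparison. The table also gives the authors' log2 fold change, p-value and FDR per region, per the file headers.

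The test was limma (version 3.58.1, R 4.3.3) on log2(CPM + 1), with trend and robust variance moderation and no covariate besides genotype, over all regions, and in the same way over gene sums for 11155 genes. The design allowed for counts or normalized values, and the latter applied. Fold changes are on the log2(CPM + 1) scale, which understates changes at low signal. No region was filtered out. edgeR (4.0.16) and DESeq2 (1.42.0) on recovered reads, no scaling for depth, pseudocounts of 0.5 and 5, a filter, left-out mice, a replicate block, moderation that was not robust and windows of 0 and 25 kb were the alternatives. The script was tested on simulated data. Gene spans and 250-base windows before starts came from RefSeq (GRCm38.p6). 1 region can belong to several genes.

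Named were all 7 genes, and of each the region nearest to its start, the strongest and the called ones (at most the 4 with the lowest adjusted p). Also named were the 12 partner genes with the lowest adjusted p in a region (1 of these regions is not reported here), and the 2 partners most like each member. Members, partner lists, markers and motifs were chosen with earlier results of these data known.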

Additional observations from a re-analysis of the deposited data

How the results depend on the processing

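The count of PDZ-LIM regions called higher (7) was 7 with edgeR, with either pseudocount, without robust moderation and with a 25 kb window, and 5 with DESeq2, with only regions of at least median signal and with a 0 kb window. Without scaling for depth it was 0, the Ldb3 sum was 0.64 (adjusted p = 0.999, limma), and over all regions 1398 were higher and 14 lower. Over all regions, DESeq2 called 251 lower, and the filter to at least median signal left 481 higher and 235 lower. The cause of these changes was not tested, but the filter tests fewer regions.

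Leaving out 1 mouse at a time gave 5 to 7 PDZ-LIM regions higher and 0 to 1 lower (1, at Pdlim2, without control mouse 2), and over all regions 1577 to 2332 higher and 270.0 to 454 lower (the lowest counts of both without NR4A2 mouse 3). The sums ranged over 0.55 to 0.79 at Ldb3, 0.26 to 0.50 at Pdlim5, 0.05 to 0.39 at Pdlim3, -0.38 to -0.11 at Pdlim7, -0.71 to -0.27 at Pdlim1 and -1.18 to -0.49 at Pdlim2.

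A window of 25 kb takes in further regions and turned the Pdlim1 sum to 0.14 (adjusted p = 0.592), gave -0.65 at Pdlim2 (0.0191) and 0.37 at Pdlim5 (0.0365), and a window of 0 kb left the Pdlim3 sum with region 2 alone (1.19, adjusted p = 0.0470, all limma). The Pdlim5 sum was 0.47 with edgeR and 0.45 with DESeq2, both past the threshold. With a window of 0 kb it was 0.35 and short of the threshold (limma adjusted p = 0.106).

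Both groups share the mouse numbers 1 to 3, but deviations of same-numbered mice correlated at -0.07, 0.06 and 0.03, so the numbers were not taken to pair the mice. With the number as a replicate block, 7 PDZ-LIM regions were higher and 0 lower, 2540 and 580 over all regions, and the Pdlim5 sum was 0.37 (limma adjusted p = 0.0384). The other member sums stayed on their side of the threshold with the block.

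With 3 mice per group and a median standard error of 0.42 over the 45 regions, a region that was not called is not shown to be equal. Whether reads were scaled by the fly spike-in before counting is not known here, so a gain or loss common to every region cannot be told apart from depth.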
